A study of Homo sapiens with 6 samples.

Results

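NUMA1 encodes NuMA, and with the genes of 7 proteins that act with it at spindle poles it made up the 8 loci described here: NUMA1, GPSM2, DYNC1H1, DCTN1, AURKA, TPX2, KIF11 and PLK1. Each locus was the gene interval in build hg19, given to the nearest 1 kb, with 10 kb added on both sides, and its members were all called ATAC-seq peaks that overlapped it. The 6 peak lists held 115 such peaks, which merged into 29 sites of the 58926 merged regions of the whole series. Within a locus, sites are numbered from the 5′ side of the gene. ATAC-seq uses a transposase that inserts adapters into open DNA, and it was applied to HCT116, an established human colon cancer line. There were 3 libraries labelled NuMA depletion, for genotype and treatment alike, and 3 labelled wild type, also for both. The labels give no agent, time or dose for the depletion, and do not say whether replicates were separate cultures, so the spread between libraries may be technical. They also give differing cell numbers for the input of a library.

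NuMA lies in the nucleus in interphase and, once the nuclear envelope breaks down, focuses microtubule minus ends into spindle poles. At the cell cortex it is held by the adaptor LGN, the product of GPSM2, and recruits the motor dynein (heavy chain DYNC1H1) with its cofactor dynactin (large subunit DCTN1), which pull on astral microtubules. Aurora A kinase (AURKA), its activator TPX2, the kinesin KIF11, which slides antiparallel microtubules apart, and the kinase PLK1 also act at the poles. Several of these genes are switched on late in the cell cycle, and promoters of that class often hold a CCAAT box, bound by NF-Y, and the element TTTGAA, called the cell cycle genes homology region.

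For 6 of the 8 genes a RefSeq promoter sequence (build GRCh38.p14) could be matched by symbol; AURKA and TPX2 had no entry. The 250 bases before the annotated start are shown, 5′ to 3′ on the gene's own strand, for NUMA1, for the 3 genes that held both CCAAT and TTTGAA, and for DYNC1H1, which held neither. Capitals mark matches on either strand to the CCAAT box, to the cell cycle element TTTGAA and to GGGCGG, the box bound by SP1. A match on the opposite strand shows as the reverse complement. Neighbouring GGGCGG matches overlap in GPSM2 and DYNC1H1 and then share capitals.
NUMA1: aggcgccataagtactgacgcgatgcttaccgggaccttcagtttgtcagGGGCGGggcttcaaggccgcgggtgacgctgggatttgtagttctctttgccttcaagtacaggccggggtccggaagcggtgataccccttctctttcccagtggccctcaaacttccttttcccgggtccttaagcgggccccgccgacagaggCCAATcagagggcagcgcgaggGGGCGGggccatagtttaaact
GPSM2: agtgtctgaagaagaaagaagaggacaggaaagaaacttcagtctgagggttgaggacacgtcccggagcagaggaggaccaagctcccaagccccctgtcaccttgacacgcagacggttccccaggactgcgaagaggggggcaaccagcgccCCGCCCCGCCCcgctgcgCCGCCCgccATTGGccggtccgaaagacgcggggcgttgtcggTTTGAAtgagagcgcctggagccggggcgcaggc
KIF11: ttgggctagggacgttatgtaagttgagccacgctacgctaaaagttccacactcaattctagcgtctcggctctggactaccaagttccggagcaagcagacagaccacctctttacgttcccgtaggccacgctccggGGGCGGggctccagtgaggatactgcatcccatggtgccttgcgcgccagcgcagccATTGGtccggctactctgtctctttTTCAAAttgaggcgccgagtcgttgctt
PLK1: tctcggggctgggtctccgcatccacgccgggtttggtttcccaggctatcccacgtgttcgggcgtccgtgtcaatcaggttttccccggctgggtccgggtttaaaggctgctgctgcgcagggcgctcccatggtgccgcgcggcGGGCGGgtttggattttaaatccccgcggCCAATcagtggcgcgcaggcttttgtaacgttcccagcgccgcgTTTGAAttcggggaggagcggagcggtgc
DYNC1H1: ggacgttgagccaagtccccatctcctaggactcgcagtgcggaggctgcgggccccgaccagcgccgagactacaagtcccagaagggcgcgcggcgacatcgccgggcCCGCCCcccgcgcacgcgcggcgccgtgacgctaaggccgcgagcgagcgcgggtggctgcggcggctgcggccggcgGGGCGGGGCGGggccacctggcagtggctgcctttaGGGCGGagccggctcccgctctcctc
In GPSM2, KIF11 and PLK1 the CCAAT box lay upstream of TTTGAA, and both lay near the start. GGGCGG occurred 4 times in DYNC1H1, 3 times in GPSM2, 2 times in NUMA1 and 1 time each in KIF11 and PLK1. TTTGAA began 34, 28 and 29 bases before the start in GPSM2, KIF11 and PLK1, and CCAAT 68, 53 and 73 bases before it. NUMA1 had CCAAT at 44 bases and no TTTGAA. Of all 35116 RefSeq promoters of the same length, 32.0% held CCAAT, 13.3% TTTGAA, 4.69% both and 42.6% GGGCGG, counted on both strands. TTCGAA (1.19% of all promoters) and TATAAA (10.7%) were in none of the 6 genes' sequences, and DCTN1, with 3 annotated promoters, had only GGGCGG, in the first of them. A match is a description of these letters and shows no binding.

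The lists held 38466, 45892 and 21783 peaks in NuMA-depleted replicates 1, 2 and 3, and 35502, 38685 and 32503 in wild-type replicates 1, 2 and 3. Read totals were unknown, and depth relative to the mean of the 6 libraries, recovered from the peaks' own statistics, was 1.07 to 1.21 in the depleted and 0.762 to 0.975 in the wild-type libraries. All values of a peak belong to its own library. The fold is the height of the peak plus 1 over the caller's local background plus 1, and the −log10 q is the caller's significance. Where the background is small, the fold lies well below the plain ratio. NUMA1 site 5 in wild-type replicate 1, with a height of 17 over a background of 1.17, had a fold of 8.29. The pileup behind a fold, in fragments stacked at the summit, could also be recovered and was 7 to 82 over the 115 peaks, with a median of 24, so that counting error alone is large at the weaker sites.

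Called peaks stood at or near the 5′ end of all 8 genes, and few sites elsewhere were seen in every library. Of the 29 sites, 10 (34.5%) were called in all 6 libraries, against 28.9% of all merged regions, and 5 (17.2%) in a single library, against 25.1%. By place, 9 of the 29 overlapped or lay within 2 kb of a gene's 5′ end, 12 elsewhere in a gene, 5 in an upstream and 3 in a downstream flank; 6 of the 9 were among the 10 called everywhere. The number of the 29 sites called was 20, 23 and 14 in NuMA-depleted replicates 1, 2 and 3 and 17, 23 and 18 in wild-type replicates 1, 2 and 3, with the fewest in the shortest list.

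**Figure D1:**
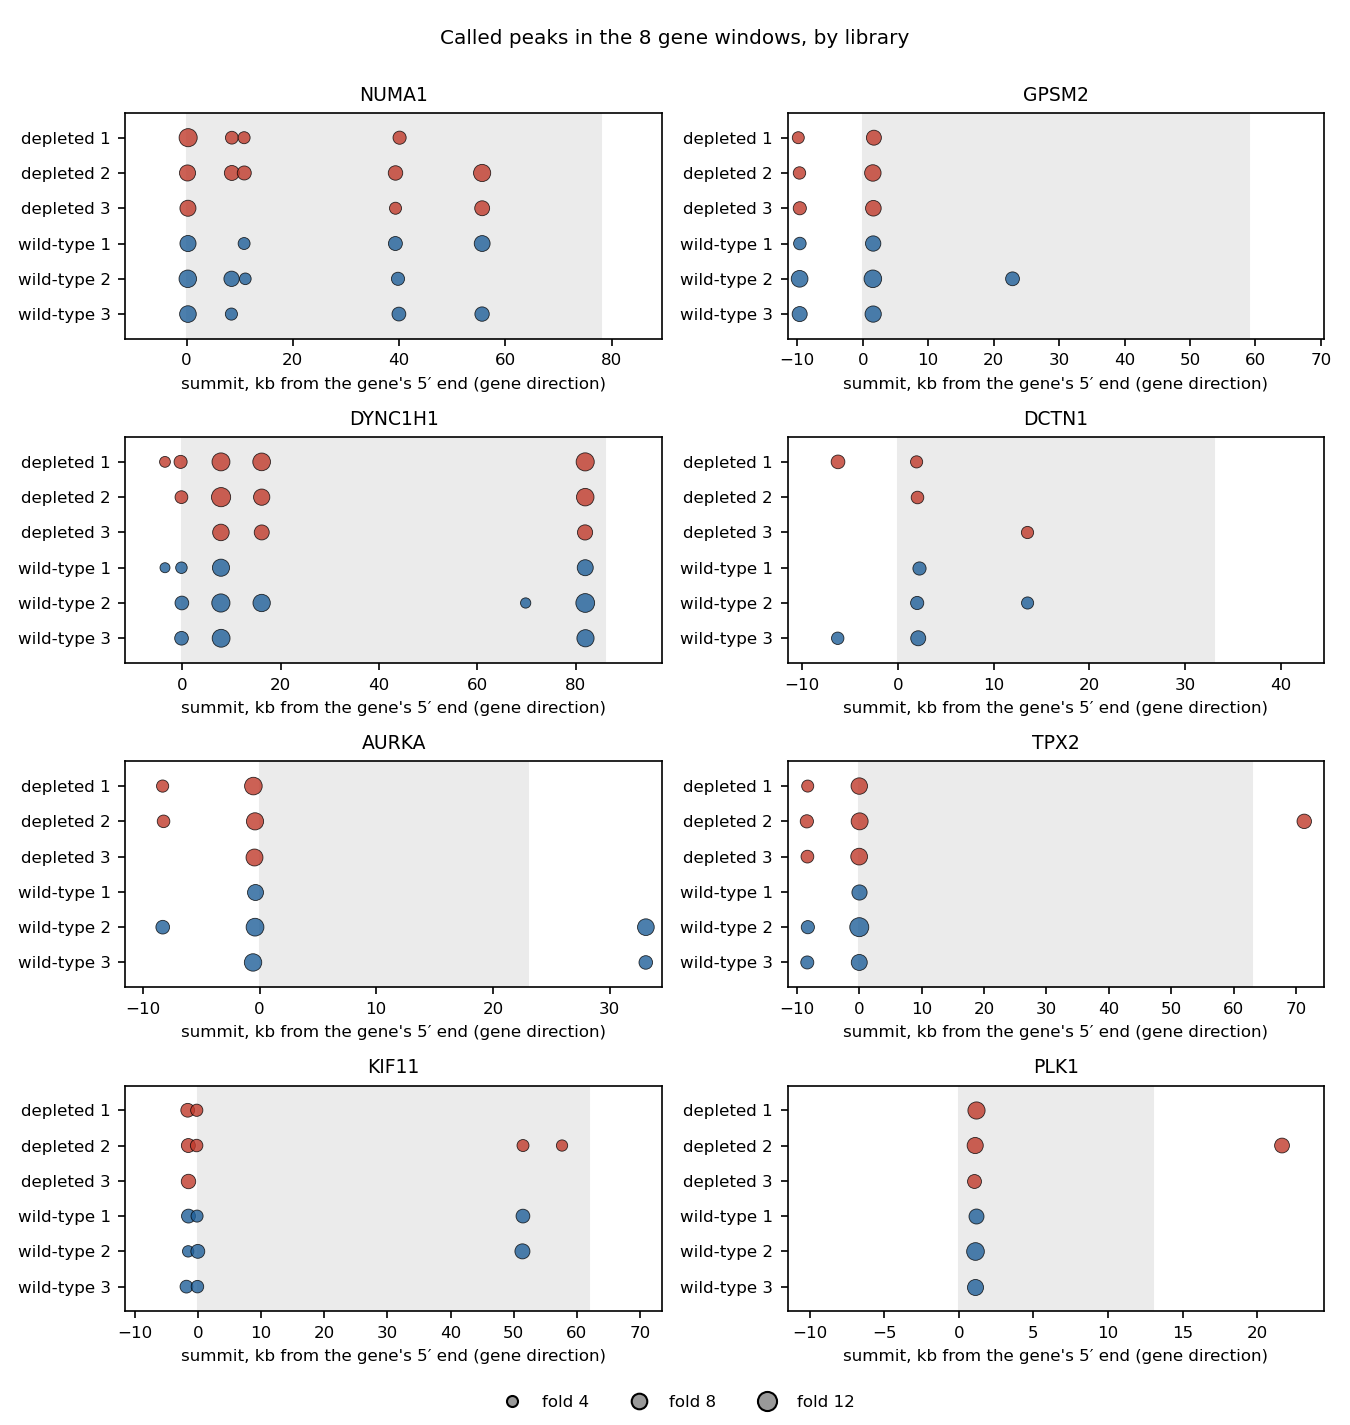
Summits of called peaks in the 8 loci, in kb from the gene's 5′ end along the gene (horizontal), for each of the 6 libraries (rows; red NuMA-depleted, blue wild-type). Grey marks the gene interval and the area of a circle is proportional to the fold, each library's own value; the columns of 6 circles are the 10 sites called in every library, and most of them stand at a 5′ end.

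NUMA1 itself, on chromosome 11 on the minus strand (71714000 to 71792000), kept a called promoter peak in every NuMA-depleted library. These peaks report open DNA at the gene and give no measure of NuMA protein, so they do not check the depletion. Site 1 lay at the 5′ end and merged to 71791360 to 71792214. Its peak ran from 71791360 to 71792150, from 71791369 to 71792135 and from 71791360 to 71792052 in depleted replicates 1, 2 and 3, with widths of 791, 767 and 693 bp, folds of 10.8, 8.52 and 8.47 and −log10 q of 41.8, 36.5 and 20.7. The wild-type peaks ran from 71791515 to 71792214, from 71791437 to 71792093 and from 71791360 to 71792147, with widths of 700, 657 and 788 bp, folds of 8.55, 10.1 and 9.14 and −log10 q of 22.3, 30.8 and 29.3. The groups overlapped in every one of these measures, and the summits of the 6 libraries lay within 116 bp of each other. The pileup at the summit was 63, 64 and 36 fragments in the depleted and 38, 47 and 49 in the wild-type libraries.

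Inside NUMA1 the most regular site was site 4, a broad and low peak about 39.6 kb into the gene (71751768 to 71753120). It was called in all 6 libraries, with widths of 1116, 1353 and 1077 bp and folds of 5.69, 6.90 and 4.78 in the depleted replicates 1, 2 and 3, and widths of 631, 1132 and 1107 bp and folds of 6.42, 5.70 and 6.30 in the wild-type ones. Its −log10 q was 9.77, 23.2 and 6.37 against 11.0, 8.34 and 11.9 in the same order. Again the groups overlapped; here the summits were spread over 793 bp, the widest spread of the 29 sites.

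The other 3 sites within NUMA1 were each called in 2 depleted and 2 wild-type libraries, though not the same ones. Site 2 (71783240 to 71783834, 8.5 kb into the gene) was called in depleted replicates 1 and 2, with folds of 5.40 and 7.36 and −log10 q of 9.22 and 20.8, and in wild-type replicates 2 and 3, with folds of 7.74 and 4.85 and −log10 q of 13.8 and 5.56. Site 3 (71780858 to 71781211) was called in depleted replicates 1 and 2 at folds of 4.77 and 6.49 and wild-type replicates 1 and 2 at 4.71 and 4.48, with −log10 q of 6.41, 15.7, 5.05 and 4.50. Site 5 (71736259 to 71736800, 55.6 kb into the gene) was called in depleted replicates 2 and 3 at folds of 9.72 and 7.32 and wild-type replicates 1 and 3 at 8.29 and 6.82, with −log10 q of 23.4, 11.4, 11.9 and 8.93. Widths were 489, 563, 568 and 301 bp at site 2, 317, 354, 286 and 247 bp at site 3, and 542, 510, 264 and 311 bp at site 5, in the order just given. In depleted replicate 2 site 5 had the highest fold of the locus, at 9.72 against 8.52 at site 1. There site 1 still had the higher −log10 q (36.5 against 23.4) and pileup (64 against 34 fragments). In the other 5 libraries site 1 had the highest fold of the locus.

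Just past the 10 kb limit on the 5′ side of NUMA1 lay a region that all 3 wild-type libraries called and no depleted library did. It began 358 bp beyond the limit, at 71802359 to 71802845. In wild-type replicates 1, 2 and 3 its fold was 6.08, 6.99 and 7.04, its −log10 q 7.46, 8.93 and 10.03, and its pileup 14, 14 and 17 fragments. Over the genome 0.592% of merged regions were called in all 3 wild-type and no depleted library, and 0.625% the other way. Absence of a call means only that no peak was listed there, and it is no measurement of closed DNA. No site inside the 8 loci met either rule.

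The cortical partner GPSM2 (chromosome 1, 109418000 to 109477000, plus strand) had a strong site near its start and a weaker one in its upstream flank, both in all 6 libraries. Site 2, the start site, merged to 109419293 to 109420292, with summits 1.54 to 1.70 kb inside the interval's 5′ end; the RefSeq model of GPSM2 is 57.6 kb long against 59 kb for the interval. In depleted replicates 1, 2 and 3 it ran from 109419459 to 109420047, from 109419295 to 109420292 and from 109419443 to 109419839 (589, 998 and 397 bp), with folds of 7.39, 8.93 and 8.05 and −log10 q of 12.8, 20.8 and 13.4. Wild-type peaks ran from 109419418 to 109420020, from 109419295 to 109419955 and from 109419293 to 109419851 (603, 661 and 559 bp), with folds of 7.74, 10.2 and 8.72 and −log10 q of 14.1, 21.0 and 15.8. The groups overlapped in fold, q and width.

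GPSM2 site 1 (109407935 to 109408638), with its median summit at -9.6 kb from the gene's 5′ end, was a weak upstream site whose highest folds were in wild-type libraries. Depleted replicates 1, 2 and 3 gave 4.74, 5.08 and 5.69 with −log10 q of 4.17, 5.89 and 5.98, and wild-type replicates 1, 2 and 3 gave 5.19, 9.20 and 7.46 with 4.96, 13.5 and 9.90. Widths were 353, 539 and 390 bp against 283, 300 and 410 bp. Wild-type replicate 1 fell among the depleted values, so the groups overlapped. The pileups were small, at 9, 13 and 12 against 10, 17 and 15 fragments. Site 3, within the gene at 109440742 to 109440969, was called only in wild-type replicate 2, at a fold of 6.29 and a −log10 q of 6.68 over 228 bp.

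DYNC1H1 (chromosome 14, 102431000 to 102517000, plus strand), the dynein heavy chain, had its strongest peaks inside the gene. Site 2, at the 5′ end (102430594 to 102431411), was called in 5 libraries and not in depleted replicate 3. Depleted replicates 1 and 2 had peaks from 102430682 to 102430912 and from 102430594 to 102431266 (231 and 673 bp), with folds of 5.64 and 5.38 and −log10 q of 12.6 and 16.2. Wild-type replicates 1, 2 and 3 had peaks from 102430654 to 102431285, from 102430799 to 102431411 and from 102430737 to 102431121 (632, 613 and 385 bp), with folds of 4.38, 6.21 and 6.17 and −log10 q of 6.99, 15.1 and 13.6. The depleted values lay inside the wild-type range of folds.

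Site 3 of DYNC1H1, 7.9 kb into the gene (102438624 to 102439088), was a narrow and strong peak in all 6 libraries. Its folds were 10.6, 12.1 and 9.01 in depleted replicates 1, 2 and 3 and 9.66, 10.9 and 10.5 in the wild-type ones, with −log10 q of 32.0, 58.5 and 20.8 against 23.0, 29.0 and 25.8 and widths of 304, 439 and 350 bp against 344, 400 and 298 bp. Site 6, near the 3′ end (102512553 to 102513192), was called in all 6 as well, with folds of 10.8, 10.1 and 7.59 against 8.43, 11.6 and 9.74, −log10 q of 38.9, 35.6 and 19.8 against 22.6, 45.2 and 31.3, and widths of 562, 549 and 423 bp against 635, 549 and 593 bp. At both sites the groups overlapped. In each of the 5 libraries that called the start site, both of these inner peaks had the higher fold, and summits agreed to within 55 bp at site 3 and 91 bp at site 6.

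Site 4 of DYNC1H1, 16.2 kb into the gene (102446674 to 102447284), came closest to a depleted-only pattern, being called in all 3 depleted libraries and in 1 wild-type library. Depleted replicates 1, 2 and 3 had folds of 10.3, 8.71 and 7.41, −log10 q of 21.3, 20.9 and 12.3 and widths of 497, 443 and 567 bp. Wild-type replicate 2 had a fold of 9.91 and a −log10 q of 19.5 over 191 bp, so its fold stood within the depleted range although its peak was narrower than all 3. With wild-type replicate 2 left out the site was depleted-only, as were 1.25% of all regions. By the depth estimated from the peaks, all 3 depleted libraries were deeper than the wild-type ones. Read totals were unknown, and the part of depth in these calls was not tested. A pair of weak sites completed the locus: site 1 (102427390 to 102427753), called in depleted replicate 1 and wild-type replicate 1 at folds of 3.87 and 3.30 with −log10 q of 5.73 and 3.54 and widths of 267 and 215 bp, and site 5 (102500616 to 102500821), called in wild-type replicate 2 at a fold of 3.49 and a −log10 q of 2.03 over 206 bp.

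DCTN1 (chromosome 2, 74588000 to 74621000, minus strand), the large subunit of dynactin, was the one locus of the 8 with no site called in all 6 libraries. Site 2 (74618438 to 74619319) had summits 1.96 to 2.21 kb inside the 5′ end of the interval, which is 33 kb long where the RefSeq model spans 30.7 kb. Depleted replicates 1 and 2 called it from 74618806 to 74619246 and from 74618444 to 74619319 (441 and 876 bp), at folds of 4.87 and 5.21 and −log10 q of 4.58 and 6.71. Wild-type replicates 1, 2 and 3 called it from 74618438 to 74619221, from 74618652 to 74619308 and from 74618557 to 74619297 (784, 657 and 741 bp), at folds of 5.75, 5.72 and 7.42 and −log10 q of 6.32, 6.37 and 9.84. Each wild-type fold was above both depleted folds, depleted replicate 3 had no peak, and the pileups were 10 and 15 against 12, 12 and 15 fragments. Among the 22132 regions called in the 5 other libraries its rank was also lower in both depleted ones, as it was for 12.4% of that set. The 2 remaining sites were each called in 1 library of each group: site 1 (74627166 to 74627460) in depleted replicate 1 and wild-type replicate 3 at folds of 6.20 and 5.09, with −log10 q of 7.42 and 4.40 over 241 and 283 bp, and site 3 (74607292 to 74607722) in depleted replicate 3 and wild-type replicate 2 at 4.94 and 4.86, with −log10 q of 4.89 and 4.55 over 240 and 200 bp.

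The spindle kinase AURKA (chromosome 20, 54944000 to 54967000, minus strand) and its activator TPX2 (chromosome 20, 30327000 to 30390000, plus strand) each had 1 strong start site that every library called. At AURKA the summits of site 2 (54966803 to 54967919) lay at -0.56 to -0.39 kb from the interval's 5′ end, towards CSTF1, the gene's neighbour in the RefSeq gene order. That end is given only to the nearest 1 kb, so the side of the start on which they lay is not settled. Depleted replicates 1, 2 and 3 had peaks from 54967077 to 54967789, from 54967046 to 54967900 and from 54967294 to 54967706 (713, 855 and 413 bp), with folds of 10.2, 9.71 and 9.44 and −log10 q of 33.4, 43.0 and 23.7. Wild-type peaks ran from 54966803 to 54967737, from 54967082 to 54967919 and from 54967028 to 54967918 (935, 838 and 891 bp), with folds of 8.40, 10.4 and 9.99 and −log10 q of 24.0, 30.9 and 28.0. The folds overlapped, and depleted replicate 3 had the narrowest peak.

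Site 3 of AURKA (54933703 to 54934567), in the downstream flank, was called in wild-type replicates 2 and 3 and in no depleted library, at folds of 9.18 and 6.07, −log10 q of 18.7 and 9.97 and widths of 222 and 865 bp. Wild-type replicate 1 did not call it, so it was not a site of the whole group. Of all merged regions 2.85% were called in at least 2 wild-type and no depleted library, and 1.38% met the wild-type-only rule when wild-type replicate 1 was left out, as this site did. Site 1 (54975011 to 54975514), in the upstream flank, was called in depleted replicates 1 and 2 and wild-type replicate 2, at folds of 4.91, 5.24 and 6.17, −log10 q of 4.41, 5.85 and 6.49 and widths of 290, 294 and 326 bp.

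TPX2 site 2 (30326581 to 30327414) stood on the 5′ end, with all 6 summits within 97 bp. Depleted replicates 1, 2 and 3 had peaks from 30326674 to 30327320, from 30326633 to 30327321 and from 30326840 to 30327285 (647, 689 and 446 bp), with folds of 8.90, 9.47 and 9.22 and −log10 q of 22.4, 33.4 and 19.7. Wild-type peaks ran from 30326598 to 30327304, from 30326581 to 30327414 and from 30326624 to 30327320 (707, 834 and 697 bp), with folds of 7.60, 11.9 and 8.42 and −log10 q of 14.8, 32.8 and 18.6. The depleted folds lay between the wild-type ones, while all 3 wild-type peaks were wider than all 3 depleted peaks, which held for 3.21% of the 17009 regions called in all 6 libraries, against 4.15% in the other direction. Site 1 of TPX2 (30318449 to 30318977), with its median summit at -8.3 kb, was called everywhere but in wild-type replicate 1, at folds of 4.79, 5.76 and 5.38 in the depleted and 5.72 and 5.60 in wild-type replicates 2 and 3, with −log10 q of 5.28, 10.5 and 6.13 against 6.07 and 6.41 and widths of 329, 526 and 239 bp against 449 and 237 bp. Site 3 (30398013 to 30398525), downstream, was called in depleted replicate 2 alone, at a fold of 6.89 and a −log10 q of 11.8 over 513 bp.

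KIF11 (chromosome 10, 94353000 to 94415000, plus strand), the kinesin that keeps spindle poles apart, had 2 sites side by side at or near its 5′ end, and the outer one was the more regular. Site 1 (94350584 to 94351808), with its median summit at -1.6 kb, was called in all 6 libraries. Its folds were 6.25, 6.43 and 6.89 in depleted replicates 1, 2 and 3 and 6.36, 4.30 and 5.41 in the wild-type ones, with −log10 q of 12.8, 21.4 and 11.1 against 11.6, 5.81 and 9.44 and widths of 967, 709 and 526 bp against 513, 483 and 993 bp. Wild-type replicates 2 and 3 were the lowest and wild-type replicate 1 fell among the depleted values.

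KIF11 site 2 (94352444 to 94353095), which reaches the 5′ end, was missing in depleted replicate 3. Depleted replicates 1 and 2 had peaks from 94352715 to 94353080 and from 94352444 to 94353080 (366 and 637 bp), with folds of 4.92 and 5.16 and −log10 q of 7.94 and 14.1. Wild-type peaks ran from 94352741 to 94353054, from 94352733 to 94353095 and from 94352745 to 94353078 (314, 363 and 334 bp), with folds of 4.80, 6.36 and 5.17 and −log10 q of 6.65, 13.0 and 8.63. The groups overlapped, and in 4 of the 5 libraries with both sites the outer one had the higher fold. Sites 3 (94404195 to 94404505) and 4 (94410492 to 94410911), far inside the gene, had small pileups. Site 3 had folds of 4.74 in depleted replicate 2 and 6.26 and 7.45 in wild-type replicates 1 and 2. Its −log10 q was 5.07, 6.80 and 9.30, its widths 297, 234 and 260 bp and its pileups 12, 11 and 13 fragments. In wild-type replicate 2 its fold was the highest of the locus, against 4.30 at site 1 and 6.36 at site 2, where the pileups were 18 and 27. Site 4 had a fold of 4.21, a −log10 q of 3.78 and a pileup of 10 over 420 bp in depleted replicate 2.

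PLK1 (chromosome 16, 23689000 to 23702000, plus strand), the smallest locus at 33 kb with its flanks, had 1 regular site. Site 1 (23689724 to 23691036) had summits 1.01 to 1.15 kb inside the interval's 5′ end. Depleted replicates 1, 2 and 3 had peaks from 23689761 to 23690342, from 23689786 to 23690511 and from 23689903 to 23690421 (582, 726 and 519 bp), with folds of 9.73, 8.56 and 6.38 and −log10 q of 23.5, 27.8 and 10.2. Wild-type peaks ran from 23689829 to 23691036, from 23689724 to 23690762 and from 23689834 to 23690724 (1208, 1039 and 891 bp), with folds of 7.41, 10.3 and 8.47 and −log10 q of 16.2, 26.1 and 17.3. The folds overlapped and, as at TPX2, every wild-type peak was wider than every depleted one. These were 2 of the 10 sites called in all 6 libraries, against 3.21% of all 17009 such regions. Of the 10 sites 0 went the other way, against 4.15%. Width was not a planned comparison, and whether 2 of 10 exceeds the share over all regions was not tested. Peak width also moves with a library's depth and background, and their part in the result was not tested. Site 2 (23710601 to 23710949), downstream towards ERN2, was called in depleted replicate 2 alone, at a fold of 7.25 and a −log10 q of 14.2 over 349 bp.

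**Figure D2:**
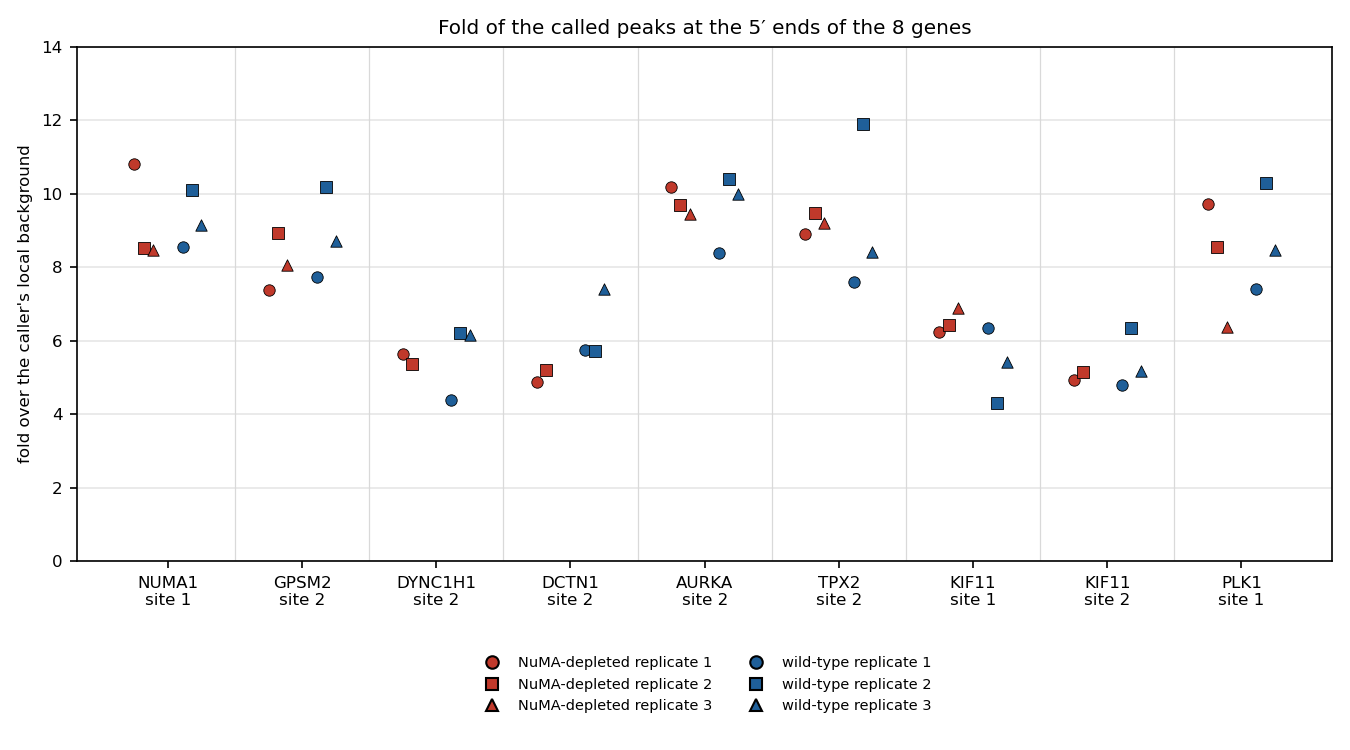
Fold of each called peak over the caller's local background (vertical, linear from 0) at the 9 sites within 2 kb of a 5′ end, one symbol per library (red NuMA-depleted, blue wild-type). Symbols missing for depleted replicate 3 at DYNC1H1 site 2, DCTN1 site 2 and KIF11 site 2 mean that no peak was called; at the 6 other sites all 6 libraries are present and the colours overlap.

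Among the sites nearest to each gene's 5′ end, 5 were called everywhere and 3 had lower folds, a split drawn after the values were seen. NUMA1, GPSM2, AURKA, TPX2 and PLK1 had a start site in all 6 libraries, with folds of 7.39 to 10.8, 8.52 to 9.71 and 6.38 to 9.44 in depleted replicates 1, 2 and 3 and of 7.41 to 8.55, 10.1 to 11.9 and 8.42 to 9.99 in wild-type replicates 1, 2 and 3. The peaks nearest to the 5′ ends of DYNC1H1, DCTN1 (summits 1.96 to 2.21 kb inside it) and KIF11 had lower folds than all of these in each library that called them. They ran from 4.87 to 5.64 and from 5.16 to 5.38 in depleted replicates 1 and 2, and from 4.38 to 5.75, 5.72 to 6.36 and 5.17 to 7.42 in wild-type replicates 1, 2 and 3. Depleted replicate 3, whose list was the shortest, called 0 of these 3. They were also the 3 of the 29 sites called in every library except that one, a pattern held by 8.69% of all merged regions. The split is in fold and did not hold for pileup. Pileups follow for depleted replicates 1 and 2, then wild-type replicates 1, 2 and 3. DYNC1H1 site 2 had 30, 41, 22, 33 and 30 fragments over backgrounds of 4.03 to 6.8. GPSM2 site 2 had 22, 32, 24, 29 and 24 over 1.87 to 2.69. KIF11 site 2 had 21, 37, 18, 27 and 22, and DCTN1 site 2 had 10, 15, 12, 12 and 15. KIF11 site 1, the ninth site near a 5′ end, is outside this split. Its folds of 4.30 to 6.89 crossed it, since in depleted replicate 3 its 6.89 was above the 6.38 of PLK1 site 1. Of the 6 genes with a promoter sequence, the 3 with lower folds were KIF11, which holds both CCAAT and TTTGAA, and DYNC1H1 and DCTN1, which hold neither. The others were GPSM2 and PLK1, which hold both, and NUMA1, which holds CCAAT. With 6 genes, a relation between these letters and the fold was not tested.

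Ranks gave a scale common to the libraries for the 10 sites called in all 6. The 17009 regions called in every library were ranked by fold within each library, and a site's percentile in that set was compared between the groups. Among all 17009 regions 6.75% were higher in every depleted than in every wild-type library and 6.21% were lower in every one. Of the 10 sites 0 were higher and 0 were lower, so the groups overlapped at each of them. The NUMA1 promoter stood at percentiles of 87.9, 57.5 and 85.2 in depleted replicates 1, 2 and 3 and 66.7, 71.2 and 74.1 in the wild-type ones, with depleted replicate 2 the lowest of all. DYNC1H1 site 3 ranked highest of the 10, at 86.2, 97.5 and 90.5 against 82.5, 81.1 and 90.5. AURKA site 2 and DYNC1H1 site 6 came next and could not be ordered, with 82.0, 78.1 and 93.6 against 64.0, 75.1 and 85.2 at AURKA and 88.2, 83.9 and 72.9 against 64.5, 88.4 and 82.3 at DYNC1H1. At the bottom were NUMA1 site 4, with 9.92, 26.9 and 14.2 against 27.0, 8.08 and 21.4, and KIF11 site 1, with 16.1, 19.3 and 59.8 against 26.0, 1.19 and 10.1.

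By mean score the remaining sites lay between these. GPSM2 site 2 stood at percentiles of 34.3, 65.4 and 79.8 in depleted replicates 1, 2 and 3 and 51.7, 73.0 and 66.7 in the wild-type ones, TPX2 site 2 at 61.4, 74.4 and 92.2 against 48.8, 90.2 and 61.4, and PLK1 site 1 at 75.5, 58.3 and 48.9 against 45.1, 73.8 and 62.3. GPSM2 site 1 had 3.22, 5.57 and 32.9 against 9.34, 57.7 and 42.7, with depleted replicate 3 above wild-type replicate 1. No library was highest or lowest throughout.

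**Figure D3:**
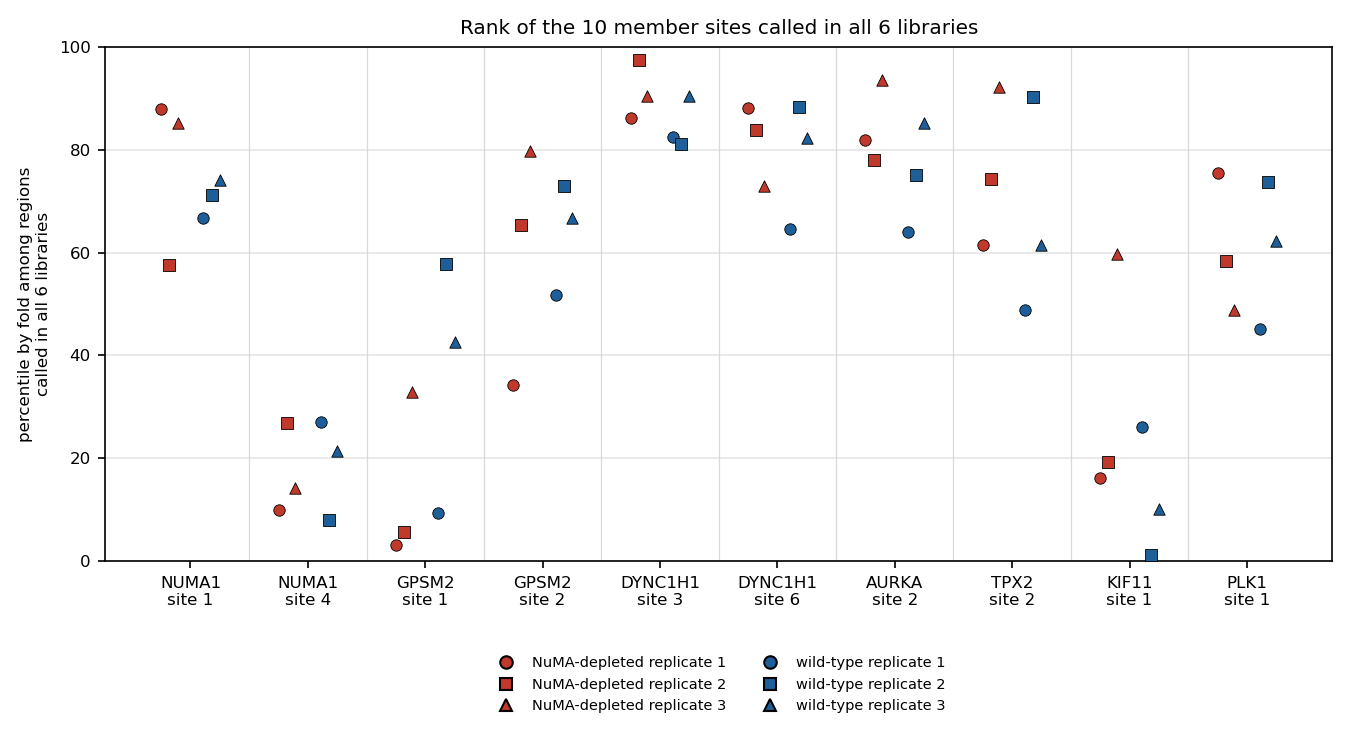
Percentile of the fold among the 17009 regions called in all 6 libraries (vertical, 0 to 100) for the 10 sites of the 8 loci called in all 6, one symbol per library (red NuMA-depleted, blue wild-type). Red and blue overlap at every site, and among the depleted libraries GPSM2 site 2 runs from 34.3 to 79.8 and KIF11 site 1 from 16.1 to 59.8.

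A limma fit over all 17009 regions, on the standard normal score of each rank, called none of the 10 sites after Benjamini-Hochberg adjustment. It called 1 region higher (0.00588%) and 0 lower (0%) in the whole set at an adjusted p of 0.05, with 1376 regions at an unadjusted p under 0.05, of which 0 were among the 10 sites. The largest differences were at KIF11 site 1, with a score 0.86 higher in depleted libraries (SE 0.46, limma, adjusted p = 0.67), and at GPSM2 site 1, with a score 0.86 lower, written as -0.86 for depleted minus wild-type (SE 0.46, limma, adjusted p = 0.677). At the 5 start sites called in all 6 libraries each difference was smaller than its SE, though at AURKA only just. In limma NUMA1 had 0.25 (SE 0.41, adjusted p = 0.932), AURKA 0.38 (SE 0.41, adjusted p = 0.879), TPX2 0.27 (SE 0.44, adjusted p = 0.932), GPSM2 -0.09 (SE 0.42, adjusted p = 0.985) and PLK1 0.02 (SE 0.41, adjusted p = 0.997). The SEs ran from 0.41 to 0.46 on this scale, and a p that misses the threshold does not show that these promoters were alike in both conditions.

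The number of peaks per locus did not separate the groups for any of the 8 genes. NUMA1 had 4, 5 and 3 peaks in depleted replicates 1, 2 and 3 and 4 in each wild-type library. DYNC1H1 had 5, 4 and 3 against 4, 5 and 3, and KIF11 2, 4 and 1 against 3, 3 and 2. GPSM2 had 2 peaks in every library but wild-type replicate 2, which had 3, and PLK1 1 peak in every library but depleted replicate 2, which had 2. The counts were 2, 1 and 1 against 1, 2 and 2 at DCTN1, 2, 2 and 1 against 1, 3 and 2 at AURKA, and 2, 3 and 2 against 1, 2 and 2 at TPX2. At TPX2 the depleted libraries had 0.667 more peaks on average (exact permutation test, two-sided, p = 0.6). In the same exact test p was 1 at the 7 other genes, and 3 libraries against 3 cannot give less than 0.10. At GPSM2 and PLK1 only 1 library differed from the rest, so the counts fixed p in advance and it carries no information there. The TPX2 difference was 0.0 in the gene interval without the 10 kb flanks. With the flanks it was 0.33 without depleted replicate 2 or without wild-type replicate 1. At KIF11 the difference was -0.33, and -1.17 without depleted replicate 2, and at NUMA1 it was 0, and -1.0 with 20 kb flanks. Of all 60 kb tiles of the genome that held a peak, 0.683% had more peaks in every depleted than in every wild-type library and 0.843% had fewer. Tiles counted summits, while the loci, of 33 to 106 kb, counted overlapping peaks, so these shares are only a rough background for the 8 genes.

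**Figure D4:**
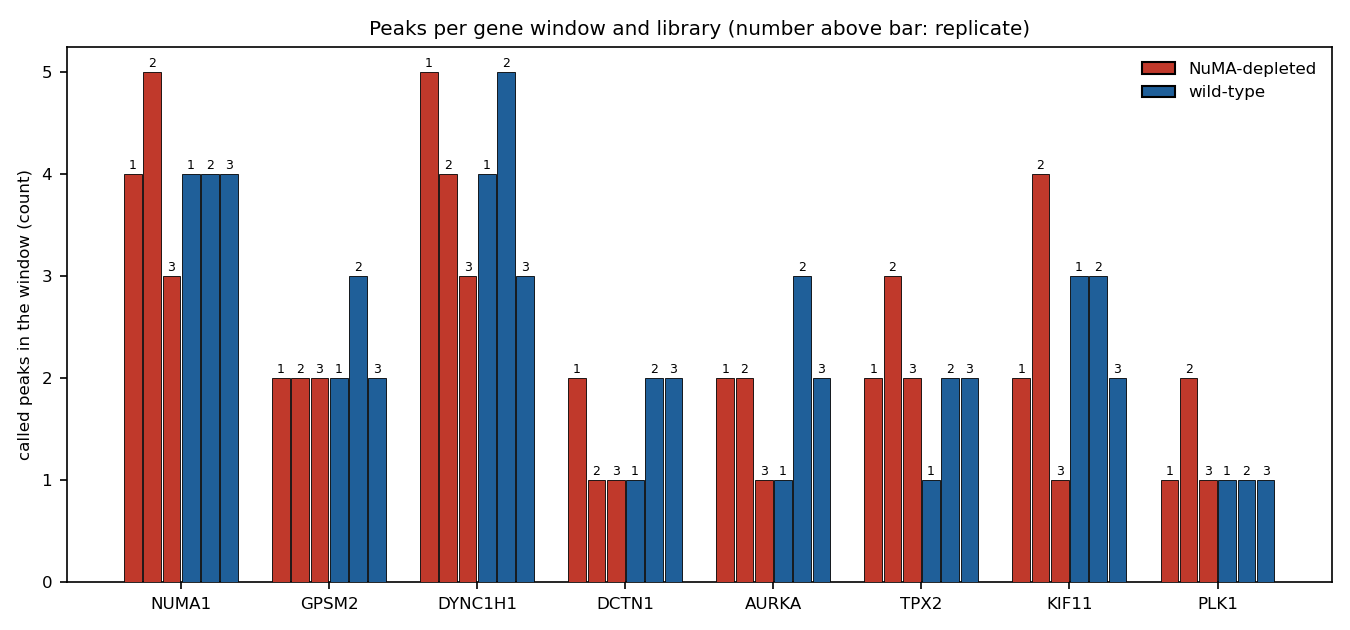
Called peaks in each of the 8 gene loci (bars, count from 0), by library (red NuMA-depleted, blue wild-type; the number above a bar is the replicate). The counts of the groups overlap at every gene, with 1 to 5 peaks per gene and library.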

How the data were processed

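ATAC-seq peak lists of 6 HCT116 libraries were used, grouped by the genotype label. The submitters' processing notes name Trim Galore, Picard, Bowtie2 2.4.1 and the build hg19. Peak names in the files record a macs2 folder; the caller's version, its settings and any read filter were not given in the sources used here. Deposited columns give, per peak and library, a fold over local background (a linear ratio), a −log10 p-value and a −log10 q-value, the smallest being 2.00.

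Peaks sharing 1 bp or more across lists formed a region; a region's value in a library was its strongest peak. Pileups were recovered from fold and p under a Poisson model (tolerance 0.01 on −log10 p). The fold was taken as height plus 1 over background plus 1. A whole number resulted for 99.986% to 99.994% of peaks. Relative depth assumes that the smallest peak width equals the fragment length used. The test of ranks ran in limma 3.58.1 (R 4.3.3) and was checked on simulated data; other steps used Python 3.11.15, pandas 2.3.3 and scipy 1.17.1. RefSeq (GRCh38.p14) gave promoter sequences, lengths and gene order; the strands of AURKA and TPX2 are background knowledge. Other spindle genes and cell type markers were not analysed here, for want of hg19 positions.

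Members, lists and tests were chosen with earlier results of these data known. Described in full were start sites, the strongest sites, group-only sites and sites with separate ranks. Tried as well were only peaks with −log10 q from 5 up, the best 21783 peaks per list, 2 of 3 libraries, 250 bp on each side of summits, flanks of 0 or 20 kb, ranks by q, log2 folds, a replicate block, and each library omitted in turn.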

Additional observations from a re-analysis of the deposited data

How the results depend on the processing

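Of the 29 sites, 0 were called only in depleted and 0 only in wild-type libraries. The wild-type-only count was 1 when 2 of 3 libraries sufficed (AURKA site 3), which 2.85% of all regions met, and 1 with 20 kb flanks (the region beyond the NUMA1 limit), against 0.592%. Leaving out each library gave 0 to 1 depleted-only sites (DYNC1H1 site 4, without wild-type replicate 2, against 1.25% of all regions) and 0 to 1 wild-type-only sites (AURKA site 3, without wild-type replicate 1, against 1.38%). Sites with separate ranks, 0 in each direction, numbered 0 to 2 higher and 0 to 2 lower when each library was left out, and 1 lower with 20 kb flanks (of 14 sites, against 6.21% of all shared regions). The sites were DYNC1H1 site 3 without depleted replicate 1, NUMA1 site 1 without depleted replicate 2, KIF11 site 1 without wild-type replicate 1, and DYNC1H1 site 3 and AURKA site 2 without wild-type replicate 3, all higher in depleted libraries. GPSM2 site 1 was lower without depleted replicate 3 or wild-type replicate 1, and DCTN1 site 2 without depleted replicate 3. With 1 library left out, 11.4% to 12.3% of all shared regions met the rule for higher ranks in the settings with a site, and 11.1% to 12.4% that for lower ranks, so 1 or 2 of 10 to 13 sites is near the background. The limma count over all regions, 1, was 0 with a −log10 q of at least 5, 52 with ranks by q, 2 with log2 folds, 0 with the replicate block and 0 on omitting any 1 library. No site of the 8 loci was called in any of these fits. The sites at an unadjusted limma p under 0.05, 0 in the main fit, were 1 of 10 with ranks by q and 2 of 10 with log2 folds. Of all 17009 regions, 1760 and 1402 were. Without depleted replicate 1, depleted replicate 3 or wild-type replicate 1 they were 1 of 10, 1 of 13 and 2 of 11. Of all regions these were 1273 of 17268, 1848 of 22132 and 1230 of 17534. In the remaining fits they were 0. The cause of the differing counts was not tested. Same-numbered libraries did not deviate together in rank (r across regions -0.0286, -0.0149 and -0.0188), and r was -0.00891 to 0.0279 for differently numbered ones. These values cannot show whether libraries of the same number were prepared together. The count of genes with separate peak numbers was 0 under each alternative run. Weak sites rest on 7 to about 20 fragments.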

Other observations

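A region outside the 8 loci, 5868 bp beyond the upstream limit of the DYNC1H1 locus on chromosome 14 (102414018 to 102415132), was called in all 6 libraries and ranked lower in every depleted than in every wild-type library. It was named after its values were seen. Its percentiles among the 17009 shared regions were 86.6, 84.2 and 90.0 in depleted replicates 1, 2 and 3 and 93.4, 92.3 and 97.8 in wild-type replicates 1, 2 and 3. Its folds were 10.6, 10.2 and 8.95 against 10.9, 12.2 and 12.1, and its pileups 83, 117 and 62 against 86, 95 and 85 fragments. Of all shared regions 6.21% met the same rule.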
